A study of Mus musculus with 15 samples.

Results

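Open chromatin outside the called peaks of histone H3 acetylation at lysine 27 (H3K27ac) was examined after ultraviolet irradiation. The cells were NIH3T3, an established fibroblast line derived from mouse embryos. The regions are the FAIRE peaks that share not a single base pair with any H3K27ac peak, when the 2 deposited peak lists are laid over each other and mitochondrial peaks are left out. Of 56959 FAIRE peaks, 18992 met this rule, and the other 37967 overlapped at least 1 of the 90676 H3K27ac peaks. H3K27ac reads were not counted at the FAIRE peaks. A peak without H3K27ac is therefore one that overlaps no called H3K27ac peak, and the mark itself may still be present there. Irradiated cells received 80 J/m2 of UV-C light at 254 nm, then fresh medium containing DMSO, and were collected 6 h later (2 FAIRE-seq samples, 2 H3K27ac ChIP-seq samples and 3 RNA-seq samples). Untreated cells were sampled in the same numbers, and 1 input DNA sample served both chromatin assays. The labels do not say whether untreated cells were also washed, re-fed or given DMSO, so each comparison is of irradiated, re-fed, DMSO-treated cells with untreated ones. All 8 fibroblast marker genes examined had a level of at least 5 CPM (counts scaled to library size) on average, and none of the 4 epithelial or 3 endothelial markers did. Of the 3 blood cell markers, Cd68 reached that level (7.06 CPM), and the 3 together summed to 9.88 to 15.5 CPM in UV libraries and 6.36 to 9.44 CPM in untreated libraries.

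FAIRE recovers DNA that is poorly crosslinked to protein, which is enriched where nucleosomes are displaced by regulatory proteins. Active promoters and enhancers usually carry H3K27ac on the nucleosomes that flank the open DNA, whereas open sites without the mark include insulators bound by CTCF, poised or silenced elements and weakly accessible DNA. UV-C light creates lesions between neighbouring pyrimidines that stall RNA polymerase, and cells answer with a broad change in transcription and with repair that requires access to chromatin.

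Each condition is represented in the chromatin tables by 1 pool of its 2 samples. Chromatin values could therefore not be compared with a spread between replicates and were not tested, and the intervals given below cover counting error, or the spread over peaks, only. Log2 enrichment is the base-2 logarithm of reads plus 16 over scaled input reads plus 16, as deposited by the authors. In the deposited peak table both pools use the input scale of the untreated pool, so the difference, UV minus untreated, carries no correction for sequencing depth. The promoter tables give an input scale of 0.5276 for the UV pool and 0.6571 for the untreated pool, a depth ratio of 0.8029, and values computed with each pool's own scale are called depth-scaled. The 16 added reads are not scaled, so depth-scaled differences of sites with few reads are corrected for depth only in part. Ratios of reads have no added reads.

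The peaks without H3K27ac were narrow and weak. Their median width was 200 bp (quartiles 171 and 242 bp), against 298 bp (227 and 401 bp) for peaks with H3K27ac. The median peak without H3K27ac held 9 reads in the UV pool and 13 in the untreated pool over 7 input reads. The median peak with H3K27ac held 18 reads in the UV pool and 31 in the untreated pool over 10 input reads. Thus 70.5% of the peaks without H3K27ac had fewer than 30 reads in both pools together, against 26.3% of the peaks with it, and single peaks can be described only with wide counting intervals. Median log2 enrichment of the peaks without H3K27ac was 0.33 in the UV pool and 0.50 in the untreated pool. For the peaks with H3K27ac it was 0.59 in the UV pool and 1.04 in the untreated pool. A 2-fold enrichment (log2 of at least 1) in the untreated pool was reached by 2081 peaks without H3K27ac (10.96%) and by 52.5% of those with it. The distributions of the 2 kinds of peak overlapped broadly, and 19927 of the 22008 sites with a 2-fold enrichment in the untreated pool carried H3K27ac.

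**Figure D1:**
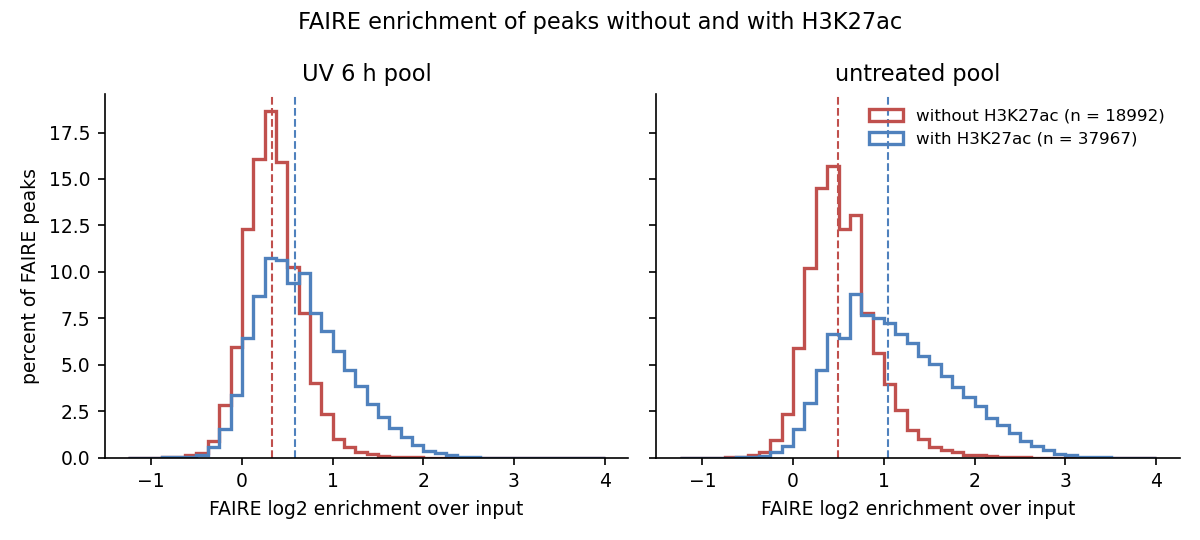
Percent of FAIRE peaks (y axis) by log2 FAIRE enrichment over input (x axis) in the UV pool (left) and the untreated pool (right), for peaks without H3K27ac (red) and with H3K27ac (blue), with dashed lines at the medians. The medians of peaks without H3K27ac lie at 0.33 and 0.50, to the left of those of peaks with H3K27ac at 0.59 and 1.04.

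FAIRE signal was lower after UV at both kinds of peak, and the difference was smaller at the peaks without H3K27ac. Their median difference was −0.18 as deposited (95% binomial interval over peaks −0.19 to −0.18) and −0.12 depth-scaled, and it turned positive, to 0.16 when the median of all FAIRE peaks was set to 0 and to 0.09 after quantile normalization. The peaks with H3K27ac had a median difference of −0.45 as deposited and −0.36 depth-scaled. The median of all FAIRE peaks was −0.35 as deposited, so relative to the whole set of FAIRE peaks the sites without H3K27ac stood higher after UV. Summed over peaks with fewer than 100 input reads, the peaks without H3K27ac held 211220 reads in the UV pool and 300100 in the untreated pool. After scaling for depth the ratio of UV to untreated reads was 0.877 (0.872 to 0.882) at peaks without H3K27ac and 0.711 (0.710 to 0.713) at peaks with it.

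Large single-site losses were less frequent over all peaks without H3K27ac than over all FAIRE peaks. A log2 difference of −1 or less was seen at 400 of them (2.11%, exact binomial interval 1.91 to 2.32), against 10.1% of peaks with H3K27ac and 7.42% of all FAIRE peaks. Depth-scaled, 290 peaks without H3K27ac passed this size (1.53%), against 5.13% of all FAIRE peaks. A difference of 1 or more was seen at 5 peaks without H3K27ac, and 0.0527% of all FAIRE peaks reached it. Depth-scaled, it was seen at 8 peaks without H3K27ac, against 0.1% of all FAIRE peaks. The counting interval of the depth-scaled read ratio lay below 1 for 1467 peaks without H3K27ac (7.72%, against 21.1% of all FAIRE peaks) and above 1 for 537 (2.83%, equal to the 2.83% of all FAIRE peaks). Because a peak with few reads can seldom reach these limits, the counts were also read at equal peak strength.

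At equal strength the summed reads of peaks without H3K27ac were still less reduced after UV, except among the strongest. Peaks were placed in classes by their mean log2 enrichment over both pools. In the class of 0.25 to 0.5 the depth-scaled ratio of UV to untreated reads was 0.920 (0.911 to 0.929) over 7431 peaks without H3K27ac, against 0.783 (0.776 to 0.791) over 6803 peaks with it. In the class of 1 to 1.5 it was 0.770 (0.756 to 0.785) over 720 peaks without H3K27ac and 0.698 (0.695 to 0.701) over 8860 peaks with it. Above 1.5 the ratios were 0.692 (0.669 to 0.715) over 103 peaks without H3K27ac and 0.693 (0.690 to 0.696) over 5292 peaks with it, with intervals that overlap. The share of peaks with a deposited difference of −1 or less followed the same classes. In the class of 0.25 to 0.5 it was 1.06% (0.843 to 1.32) without H3K27ac and 3.42% (3.00 to 3.88) with it, and in the class of 1 to 1.5 it was 8.89% (6.91 to 11.2) without H3K27ac and 15.3% (14.6 to 16.1) with it. Above 1.5 the order turned, with 20.4% (13.1 to 29.5; 21 of 103) without H3K27ac and 16.3% (15.4 to 17.4) with it, a difference within the counting intervals. Differences of this size were thus uncommon among the weak and middling sites without H3K27ac, but not among the few strong ones. In the class of 0.25 to 0.5 the median untreated reads were 11 (upper quartile 15) without H3K27ac and 14 (19) with it. Most peaks of either kind there therefore could not reach −1, and the shares of weak classes do not measure how often signal was lost. Within each kind of peak the ratio was lower in stronger classes, from 1.03 to 0.692 without H3K27ac and from 0.949 to 0.693 with it.

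**Figure D2:**
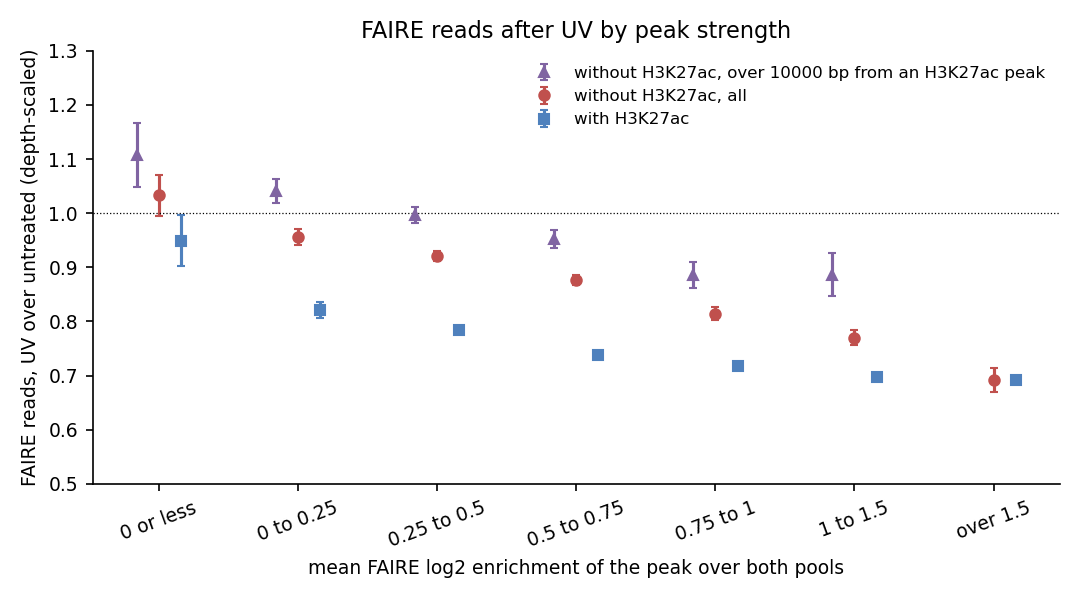
Depth-scaled ratio of UV to untreated FAIRE reads (y axis) in classes of mean log2 enrichment over both pools (x axis), for peaks without H3K27ac lying over 10000 bp from any H3K27ac peak (triangles), all peaks without H3K27ac (circles) and peaks with H3K27ac (squares). Bars are exact 95% intervals of counting error, and classes with fewer than 20 peaks are not drawn. The peaks without H3K27ac lie above those with it up to a mean enrichment of 1.5, and the remote ones lie highest.

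The distance to the nearest H3K27ac peak separated these sites. The median gap was 6574.5 bp (quartiles 689.8 and 27260.2 bp), and sites next to an acetylated region were the minority. Of the 18992 peaks, 3513 (18.5%) lay within 200 bp of an H3K27ac peak, and 42 of these touched one with no base between. Another 1605 lay 201 to 1000 bp away, 5735 lay 1001 to 10000 bp away, 6245 lay 10001 to 100000 bp away and 1894 lay farther still, of which 130 were over 1000000 bp from any H3K27ac peak. The closest sites were the most open. Summed reads at sites within 200 bp were 3.20-fold over scaled input in the UV pool and 4.202-fold in the untreated pool. At sites over 100000 bp away they were 2.55-fold over input in the UV pool and 2.38-fold in the untreated pool.

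The loss of FAIRE signal after UV was graded by the same distance. The depth-scaled ratio of UV to untreated reads was 0.760 (0.751 to 0.769) within 200 bp, 0.817 (0.802 to 0.832) at 201 to 1000 bp and 0.875 (0.866 to 0.884) at 1001 to 10000 bp. It was 0.9502 (0.941 to 0.960) at 10001 to 100000 bp and 1.07 (1.05 to 1.10) beyond 100000 bp. In that farthest class the depth-scaled sum was higher in the UV pool, whereas the raw reads were 18218 in the UV pool and 21134 in the untreated pool. The median difference there was −0.064 as deposited (−0.093 to −0.061) and −0.016 depth-scaled (−0.031 to −0.0015). Median reads in this class were 8.5 in the UV pool and 10 in the untreated pool. With so few reads, the unscaled added reads leave the depth-scaled value corrected for depth only in part. These negative medians therefore do not show a loss at the median site. The share of sites with a deposited difference of −1 or less was 5.49% within 200 bp and 0.158% (3 of 1894) beyond 100000 bp, beside 7.42% of all FAIRE peaks. The upper quartile of untreated reads was 25 within 200 bp and 13 beyond 100000 bp, so most of the farthest sites could not reach that size. The gradient was also present within classes of strength. In the class of 0.5 to 0.75 the ratio was 0.952 (0.936 to 0.969) for sites over 10000 bp away, against 0.877 (0.867 to 0.886) for all sites without H3K27ac and 0.738 (0.733 to 0.744) for sites with it.

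**Figure D3:**
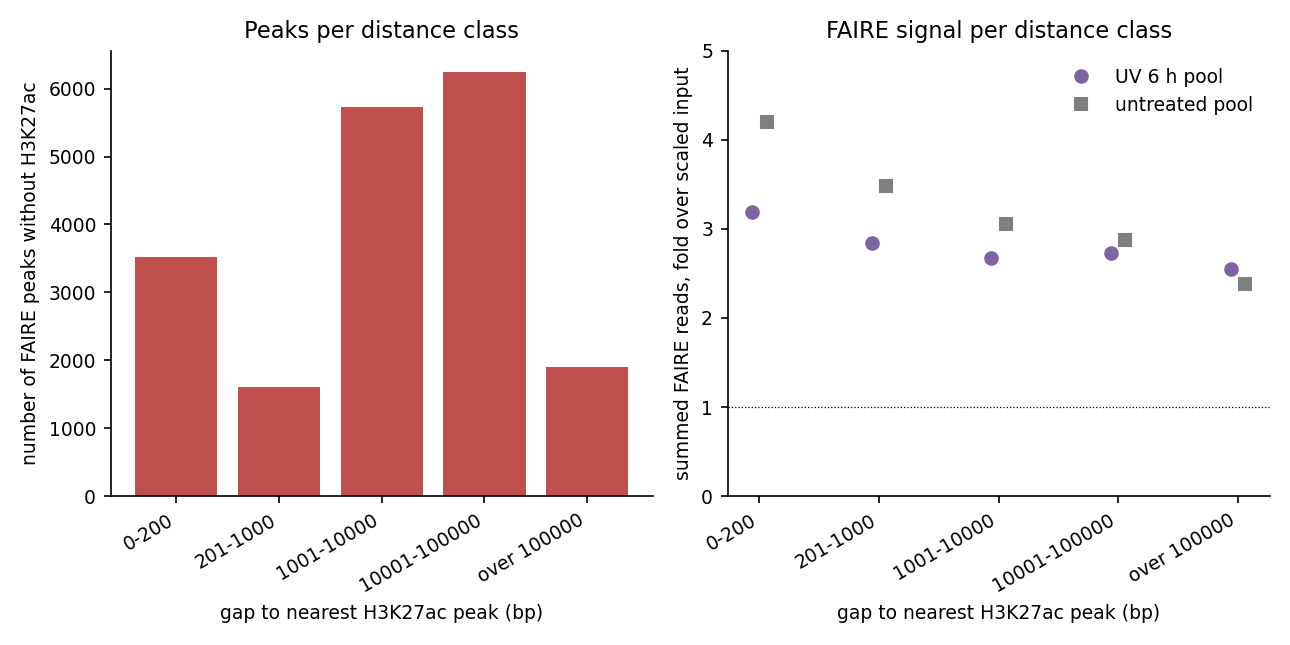
Number of FAIRE peaks without H3K27ac (left) and their summed FAIRE reads as fold over scaled input (right; UV pool as circles, untreated pool as squares) in classes of the gap to the nearest H3K27ac peak (x axis, bp). Untreated signal is 4.202-fold over input in the nearest class and 2.38-fold in the farthest. There the summed UV signal is 2.55-fold. The median deposited difference there is −0.064, without correction for depth.

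Sites just inside and just outside the rule had close values. The 1643 peaks that missed an H3K27ac peak by 50 bp or less had median log2 enrichments of 0.36 in the UV pool and 0.64 in the untreated pool and a ratio of 0.767 (0.754 to 0.780). The 2883 peaks that overlapped one by 1 to 50 bp had medians of 0.44 in the UV pool and 0.75 in the untreated pool and a ratio of 0.769 (0.761 to 0.778). Open sites set between 2 acetylated flanks, the usual arrangement of an active promoter or enhancer, numbered 1080, when an H3K27ac peak was required within 500 bp on both sides. These had a ratio of 0.753 (0.738 to 0.769), against 0.772 (0.763 to 0.782) for the 3379 sites with such a neighbour on 1 side. The ratio was 0.925 (0.919 to 0.931) for the 14533 sites with none.

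Near an acetylated region, the FAIRE difference of a site without H3K27ac went with the acetylation difference of its neighbour. Within 1000 bp there were 5118 such sites, grouped by the deposited log2 difference of the nearest H3K27ac peak. Where that neighbour differed by −1 or less (554 sites), the median depth-scaled FAIRE difference was −0.57 and the read ratio 0.441 (0.428 to 0.455). Where the neighbour differed by −0.3 to 0 (925 sites), the median was −0.19 and the ratio 0.799 (0.781 to 0.819). Where the neighbour was higher by more than 1 (481 sites), the median was 0.06 and the ratio 1.24 (1.20 to 1.28). Among the 554 sites beside the strongest acetylation losses, 23.1% had a FAIRE difference of −1 or less, against 7.42% of all FAIRE peaks. Among the 481 sites beside the strongest gains, 1 did (0.208%). The median untreated reads were 22 beside the strongest losses and 12 beside the strongest gains, so most of the latter sites could not reach −1. All 5 sites with a deposited FAIRE difference of 1 or more lay beside H3K27ac peaks that were higher by more than 1, with log2 differences of 1.415 to 2.60.

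Over the 5118 sites the 2 differences had a Spearman rho of 0.45 and a Pearson r of 0.48, close to the rho of 0.48 over the 37967 FAIRE peaks that overlap H3K27ac. Over the 8139 sites more than 10000 bp from any H3K27ac peak, rho was 0.06. These are correlations across sites, which share their pools and, in part, their neighbours, and they are given as a description with no p. The remote sites also had fewer reads, with 78.4% below 30 reads over both pools, against 59.5% of the sites within 1000 bp, and the part of this in the weaker correlation was not tested.

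**Figure D4:**
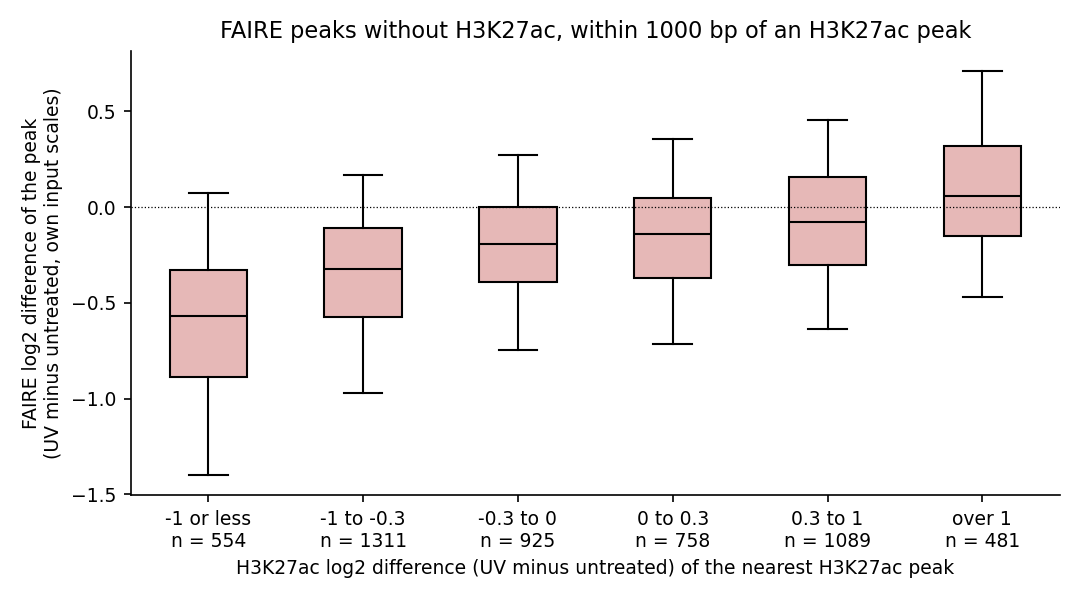
Depth-scaled log2 FAIRE difference, UV minus untreated (y axis), of the 5118 FAIRE peaks without H3K27ac that lie within 1000 bp of an H3K27ac peak, by the log2 H3K27ac difference of that peak (x axis, classes with their number of peaks). Boxes show quartiles with the median line, and whiskers span the 5th to 95th percentiles. The medians run from −0.57 in the lowest class to 0.06 in the highest.

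Sites with large gains were few and mostly lay beside acetylated regions. Those named here had the 6 largest gains among sites of at least 200 bp in the upper 50% by mean enrichment. The first was the 316-bp peak at chr10:75632601-75632916 (mm9), with 33 reads in the UV pool, 6 in the untreated pool and 8 in the input. Its depth-scaled ratio was 6.85, with a counting interval of 2.83 to 20, and its nearest H3K27ac peak, 175 bp away, was higher by 1.69 on the log2 scale. The peak at chr5:32511845-32512324 held 74 reads in the UV pool and 28 in the untreated pool, a ratio of 3.29 (2.11 to 5.28), and lay between H3K27ac peaks at 211 and 342 bp, the nearer of which was higher by 2.60. The peak at chr1:156903291-156903591 held 55 reads in the UV pool and 20 in the untreated pool (ratio 3.43, 2.02 to 6.03), with an H3K27ac peak 35 bp away on each side. All 6 of these sites had intervals above 1. The peak at chr11:74541024-74541271 was the farthest from H3K27ac of these 6, at 2559 bp, with 34 reads in the UV pool and 11 in the untreated pool (ratio 3.85, 1.91 to 8.42).

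Under the same limits on width and enrichment, the 6 largest losses included 1 of the most open sites of the untreated pool. The peak at chr1:163950345-163950923 held 20 reads in the UV pool and 173 in the untreated pool over 16 input reads, a ratio of 0.144 (0.0858 to 0.229). Its log2 enrichment was 0.44 in the UV pool and 2.83 in the untreated pool, and an H3K27ac peak 342 bp away was lower by 1.66. The peak at chr4:81317888-81318294 held 3 reads in the UV pool and 73 in the untreated pool (ratio 0.0512, 0.0103 to 0.156), beside an H3K27ac peak whose difference was −2.30. The peak at chr13:70875125-70875485, which touches an H3K27ac peak, held 6 reads in the UV pool and 84 in the untreated pool (ratio 0.0890, 0.0318 to 0.202). Of these 6 sites, 5 lay within 342 bp of an H3K27ac peak that was itself lower after UV. The exception was the 701-bp peak at chr6:116736669-116737369, with 18 reads in the UV pool and 146 in the untreated pool (ratio 0.154, 0.0885 to 0.251), whose nearest H3K27ac peak was 7236 bp away and higher by 0.78.

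Most of the sites with the highest untreated enrichment had smaller losses than these. Choice by a high untreated value in itself tends to lower the ratio of UV to untreated reads. The peak at chr11:68908204-68908782 held 137 reads in the UV pool and 262 in the untreated pool over 24 input reads, with log2 enrichments of 2.27 in the UV pool and 3.13 in the untreated pool. Its ratio was 0.651 (0.526 to 0.804), and it lies between H3K27ac peaks 48 and 216 bp away. The peak at chr4:55744902-55745347 held 95 reads in the UV pool and 202 in the untreated pool (ratio 0.586, 0.454 to 0.751), although the nearest H3K27ac peak, 154 bp away, was higher by 0.61. The 6 most enriched sites all lay within 342 bp of an H3K27ac peak.

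Sites far from any H3K27ac peak rarely reached such levels. Of the 8139 sites more than 10000 bp away, 431 (5.30%) were at least 2-fold enriched in the untreated pool. The highest was the 293-bp peak at chr1:24619447-24619739, with 221 reads in the UV pool and 368 in the untreated pool, over 82 input reads. Its ratio was 0.748 (0.630 to 0.886), and H3K27ac was 58591 bp away. The median site of the 8139 held 6 input reads. Whether reads map uniquely to this peak was not examined, so its rank may not reflect open chromatin. The peak at chr10:39932225-39932586 had 48 reads in the UV pool and 72 in the untreated pool over 9 input reads, and its ratio of 0.830 (0.564 to 1.21) could not be told from 1 at this depth. The peak at chr8:93761039-93761465 had a lower ratio, with 19 reads in the UV pool and 76 in the untreated pool (ratio 0.311, 0.178 to 0.520), 19194 bp from H3K27ac. The remote sites named here were likewise chosen by a high untreated value.

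The sites without H3K27ac were unevenly spread. They made up 39.8% of the FAIRE peaks of chromosome 6 (1531 of 3848; exact interval 38.2 to 41.4), 39.6% of chromosome 4 and 38.7% of chromosome 19, but 21.4% of the X chromosome (149 of 695; 18.4 to 24.7). On the Y chromosome 36 of 52 FAIRE peaks were of this kind, but the median input there was 48 reads a peak, and median log2 enrichment in the untreated pool was 0.09. The input differed between the other chromosomes too. Its median per 100 bp of these sites was 3.49, 3.37 and 3.74 reads on chromosomes 6, 4 and 19, and 1.89 on the X chromosome. Chromosomes 11 and 1 had similar input, 3.29 and 3.23 reads, with shares of 30.5% and 38.7%. The part of input depth in these shares was not tested. Single sites stood farther apart than acetylated ones, with a median of 8728.5 bp to the nearest other FAIRE peak, against 4153.0 bp for peaks with H3K27ac.

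In some chromosomal stretches few FAIRE peaks overlapped H3K27ac. At chr4:67000001-80000000 (mm9), 249 of 281 FAIRE peaks (88.6%) lacked H3K27ac. The whole stretch held 102 H3K27ac peaks, 37 of them at chr4:68000001-69000000. The median site there held 8 reads in the UV pool, 9 in the untreated pool and 6 in the input, and lay 242470 bp from the nearest H3K27ac peak. The median depth-scaled difference was 0.01. A deposited difference of −1 or less was seen at 1 site, but most sites there had too few untreated reads to reach it. Over the genome, 8 of 1626 windows of 1000000 bp with at least 10 FAIRE peaks held none with H3K27ac. A further 40 sites had 100 or more input reads, and 20 of these were packed into chr11:3037779-3099732, with 103 to 459 input reads each. Their median log2 enrichment was −0.40 in the UV pool and −0.03 in the untreated pool, so the FAIRE reads there did not exceed the input.

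At gene starts a related state, defined by enrichment over a whole promoter window and not by peak overlap, was rare. The promoter tables give windows of 1000 bp by gene symbol without coordinates, so the peaks themselves could not be placed at promoters. A window also takes in acetylated flanks, so the share below is not that of promoter FAIRE peaks without an overlapping H3K27ac peak. Of 21881 windows, 9501 were open in the untreated pool (FAIRE log2 enrichment of at least 0.58, a 1.5-fold enrichment), and 112 of these (1.18%, exact interval 0.972 to 1.42) were below 0.58 for H3K27ac. Only 13 of the 112 reached a FAIRE log2 enrichment of 1. In the UV pool 26 of the 112 windows were still at 0.58 or more for FAIRE, and 100 were still below 0.58 for H3K27ac. As the windows were chosen by a high untreated value near the limit of counting, their lower UV values are a description. Over all windows, classed by untreated H3K27ac, the depth-scaled ratio of UV to untreated FAIRE reads was 1.03 (1.02 to 1.04) where H3K27ac was at or below 0. It was 0.893 (0.878 to 0.908) at 0 to 1 and 0.725 (0.722 to 0.728) above 3. Of the 9335 windows at or below 0, only 46 were open, so this order is not one among open sites. Among open windows the ratio was 0.696 without H3K27ac and 0.720 with it. The windows without H3K27ac lay nearer the limit, with a median untreated FAIRE enrichment of 0.67 against 1.385. Choice by a high untreated value therefore bears more on their ratio, and these 2 ratios cannot be set against the order seen at peaks.

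**Figure D5:**
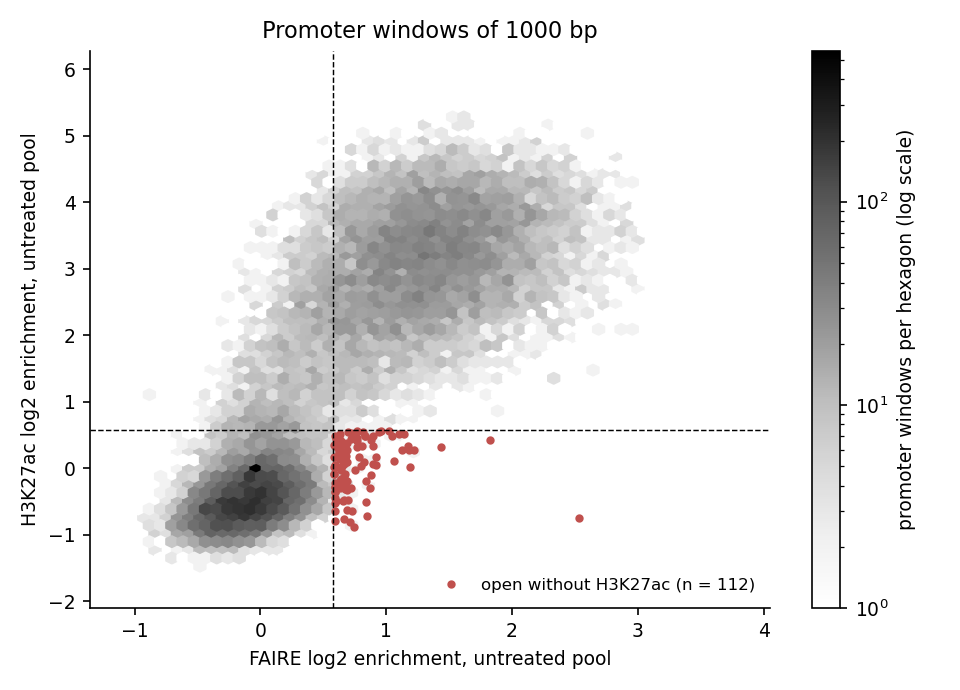
Log2 FAIRE enrichment (x axis) against log2 H3K27ac enrichment (y axis) of the 21881 promoter windows in the untreated pools, as the number of windows per hexagon, with the 112 open windows without H3K27ac as red points and dashed lines at 0.58. The red points sit close to the FAIRE threshold, and 13 of them exceed an enrichment of 1.

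Among the gene lists examined, receptors of smell and pheromones held the most such promoters. Theirs was also the largest list, with a median untreated H3K27ac enrichment of −0.56. Of 1493 sensory receptor windows, 15 were open, and 14 of these lacked H3K27ac, with 11 to 26 untreated FAIRE reads each. Among all windows below 0.58 for H3K27ac, 112 were open and 10431 were not. Open windows were thus about as rare among the receptors as among all windows without the mark. Of the 255 open promoters of Zfp zinc finger genes 1 lacked it, that of Zfp114. All 48 open promoters of developmental transcription factor and Wnt genes, 56 of replication-dependent histone genes and 81 of cytosolic ribosomal protein genes carried the mark, as did the 5 open keratin promoters and the 5 of imprinted genes.

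The promoters of Vamp1, Flrt3, Vip and Mlf1 are shown because they are those of the 9 most open of the 112 windows with exactly 1 start in the RefSeq table used. Vamp1 encodes a vesicle SNARE protein, Flrt3 a cell adhesion protein of the membrane and Vip the neuropeptide vasoactive intestinal peptide. Each line gives the 250 bases before the start, 5′ to 3′ on the gene's strand, from RefSeq (GRCm38.p6), with matches to fixed motifs in capitals. These coordinates are of another build than the peaks and were not joined to them.
Vamp1 (chr6:125215331-125215580, plus strand): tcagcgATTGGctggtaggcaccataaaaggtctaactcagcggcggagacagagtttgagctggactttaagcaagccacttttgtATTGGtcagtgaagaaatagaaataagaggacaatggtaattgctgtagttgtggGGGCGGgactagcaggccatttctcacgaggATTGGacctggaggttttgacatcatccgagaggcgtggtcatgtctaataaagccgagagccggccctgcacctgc
Flrt3 (chr2:140671477-140671726, minus strand): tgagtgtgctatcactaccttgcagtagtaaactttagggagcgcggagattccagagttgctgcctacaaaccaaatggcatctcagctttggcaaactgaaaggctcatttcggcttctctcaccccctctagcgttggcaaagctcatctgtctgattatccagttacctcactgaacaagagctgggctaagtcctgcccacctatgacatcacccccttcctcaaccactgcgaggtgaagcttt
Vip (chr10:5638968-5639217, plus strand): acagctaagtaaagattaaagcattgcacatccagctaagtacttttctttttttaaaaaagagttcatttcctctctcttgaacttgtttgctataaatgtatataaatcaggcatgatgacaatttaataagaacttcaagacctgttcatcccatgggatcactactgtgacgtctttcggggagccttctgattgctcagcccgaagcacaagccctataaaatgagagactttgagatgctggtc
Mlf1 (chr3:67373847-67374096, plus strand): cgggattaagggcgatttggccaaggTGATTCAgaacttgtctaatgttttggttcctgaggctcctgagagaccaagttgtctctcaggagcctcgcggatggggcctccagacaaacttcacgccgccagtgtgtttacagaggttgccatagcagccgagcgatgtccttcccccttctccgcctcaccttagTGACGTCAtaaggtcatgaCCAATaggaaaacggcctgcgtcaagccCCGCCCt
The motifs in capitals are NF-Y (CCAAT, or ATTGG on the other strand) and SP/KLF (GGGCGG, or CCGCCC), and in Mlf1 also AP-1 (TGANTCA) and CRE (TGACGTCA), with no overlap between matches. Of the 13 motifs searched on both strands, Flrt3 and Vip held none in these windows. Over all 27025 RefSeq promoters of this length, NF-Y was found in 34.5%, SP/KLF in 32.9%, AP-1 in 6.87% and CRE in 1.62%. The Vamp1 window held 36 FAIRE reads in the UV pool and 75 in the untreated pool, a ratio of 0.598 (0.390 to 0.901), and its log2 H3K27ac enrichment was −0.11 in the UV pool and 0.27 in the untreated pool. The Flrt3 window held 47 FAIRE reads in the UV pool and 64 in the untreated pool (ratio 0.915, 0.614 to 1.35). The Vip window held 22 FAIRE reads in the UV pool and 57 in the untreated pool (0.481, 0.280 to 0.799), and 4 H3K27ac reads in the UV pool against 33 in the untreated pool. The Mlf1 window held 59 in the UV pool and 69 in the untreated pool (1.06, 0.739 to 1.53), so the Flrt3 and Mlf1 ratios could not be told from 1. All of these windows were chosen by a high untreated FAIRE value, which in itself tends to lower the ratio. The Vamp1 and Vip intervals below 1 therefore do not show a loss.

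RNA-seq was the assay with values per replicate, and transcript levels were lower for genes with open promoters lacking H3K27ac than for those with acetylated ones. Of the 112 genes, 100 were in the RNA count files, and their median level was 1.18 CPM over the libraries, against 40.6 CPM for genes with open, acetylated promoters. The 2 promoter classes also differed in openness, with median untreated FAIRE enrichments of 0.67 without H3K27ac and 1.385 with it. Levels were not compared at equal openness. The median of all 19069 genes in the files was 5.41 CPM. Of the 100, 46 (46%) were below 1 CPM, against 32.9% of all genes. Filtering left 75 of them among the 14925 genes tested. In edgeR's quasi-likelihood test with Benjamini-Hochberg adjustment over all tested genes, 2 were higher (2.67%) and 3 were lower (4%) after UV. Of all genes tested, 7.7% were higher and 12.4% were lower. Genes with few counts are seldom called, so the smaller shares of this weakly expressed set do not measure a weaker response. The counts of called genes were 5 higher and 6 lower without UV replicate 1, against 7.62% and 18.3% of all genes tested. Without UV replicate 3 they were 1 higher and 1 lower, against 3.755% and 7.31% of all genes tested. Without untreated replicate 2, and likewise without untreated replicate 3, 3 were higher and 1 was lower. The shares over all genes tested were 12.45% and 7.49% without untreated replicate 2, and 10.1% and 10.5% without untreated replicate 3. In bulk RNA, a change in the number of expressing cells and a change in RNA per cell cannot be told apart.

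Dclre1c, which encodes the Artemis nuclease that trims DNA ends for double-strand break joining, changed most. It had 132, 82.3 and 86.2 CPM in UV replicates 1 to 3, against 27.1, 23.8 and 28.4 CPM in untreated replicates 1 to 3, with no overlap. Its log2 fold change was 1.92 ± 0.21 (SE, edgeR adjusted p = 5.43e-06). Its promoter window held 40 FAIRE reads in the UV pool and 48 in the untreated pool, a depth-scaled ratio of 1.04 (0.665 to 1.61). The H3K27ac reads of that window were 81 in the UV pool and 44 in the untreated pool, and its log2 H3K27ac enrichment was 1.12 in the UV pool and 0.44 in the untreated pool. The acetylation value after UV was thus above the limit that defined the set, while the FAIRE reads did not differ detectably.

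The other called genes changed less. Ankrd49, an ankyrin repeat gene, had 11.8, 6.47 and 7.99 CPM in UV replicates 1 to 3, against 24.3, 23.9 and 19.9 CPM in untreated replicates 1 to 3 (log2 fold change −1.37 ± 0.21, SE, edgeR adjusted p = 0.000178). Ppp1r3b, which encodes a glycogen-targeting subunit of protein phosphatase 1, averaged 3.06 ± 1.07 CPM in UV cells and 6.10 ± 1.34 CPM in untreated cells (SD, n = 3 each; log2 fold change −1.001, edgeR adjusted p = 0.0262). Gm14124 averaged 1.504 ± 0.29 CPM in UV cells and 3.72 ± 0.62 CPM in untreated cells (SD, n = 3 each; log2 fold change −1.30, edgeR adjusted p = 0.0171). Tbc1d8, which encodes a protein with a Rab GTPase-activating domain, averaged 13.8 ± 2.64 CPM in UV cells and 8.95 ± 1.31 CPM in untreated cells (SD, n = 3 each; log2 fold change 0.63, edgeR adjusted p = 0.0350). The CPM of the groups did not overlap for any of these 5 genes. The edgeR call of Tbc1d8 was lost without UV replicate 1 (adjusted p = 0.0921) or UV replicate 3 (0.117), and that of Ppp1r3b without UV replicate 3 (0.0690) or untreated replicate 2 (0.235) or 3 (0.226). The call of Gm14124 held without UV replicate 1 and was lost without any other single library (edgeR adjusted p = 0.0515 to 0.0911).

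The most abundant transcripts of the set were those of Evi5, a regulator of Rab11 and of the cell cycle. They averaged 111 ± 21.2 CPM in UV cells and 102 ± 11.5 CPM in untreated cells (SD, n = 3 each; log2 fold change 0.11, edgeR adjusted p = 0.860). Vip averaged 63.3 ± 8.10 CPM in UV cells and 44.7 ± 3.21 CPM in untreated cells without overlap (SD, n = 3 each; log2 fold change 0.50, edgeR adjusted p = 0.0537). The protocadherin gene Pcdhb7 averaged 33.8 ± 6.18 CPM in UV cells and 37.9 ± 8.16 CPM in untreated cells, and the amino acid transporter gene Slc16a10 averaged 34.1 ± 10.6 CPM in UV cells and 27.5 ± 2.36 CPM in untreated cells (SD, n = 3 each). Gpr85 (log2 fold change −0.32) and Gne (−0.24) were also among the 8 highest and did not pass the test. The H3K27ac enrichment of the Gpr85 window was 1.58 in the UV pool and 0.45 in the untreated pool, and that of Gne, the first enzyme of sialic acid synthesis, was 1.21 in the UV pool and 0.01 in the untreated pool. Zfp114 averaged 0.861 CPM in UV cells and 0.893 CPM in untreated cells (n = 3 each) and did not pass, and no sensory receptor of the set had enough counts to test.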

How the data were processed

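The submitters' processing notes name MACS2, DESeq2, TopHat and Bowtie 0.12.9 with the mouse build mm9; which step each tool served is not given in the sources used here. Per the file headers, the chromatin tables hold read counts per feature, pooled by the authors over the 2 samples of a condition, and the columns named DMSO were taken as irradiated because the labels' protocol gives DMSO to irradiated cells. The log2 enrichment values were deposited by the authors and were recomputed from the counts; the deposited peak difference equals log2 of (UV reads + 16) over (untreated reads + 16) within 1.01e-14. The peak score was deposited by the authors without naming its scale and was used only for ranking. The RNA values are deposited counts per gene, and 8 columns that belong to no sample used here were left out. Total chromatin depth is unknown.

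Overlap of 1 bp or more was found with bedtools 2.31.1, with peak lists read as 0-based; coordinates are printed as 1-based. The ratio of input scales was taken as relative depth. Read sums leave out peaks with 100 or more input reads. Counting intervals are exact conditional binomial, and shares have exact Clopper-Pearson intervals, at 95%. PCR duplicates are not independent molecules, so both cover counting error only. Python 3.11.15, numpy 2.4.6, pandas 2.3.3, scipy 1.17.1 and matplotlib 3.10.9 were used. RNA libraries held 14211528 to 22032701 counts and were tested in R 4.3.3 with edgeR 4.0.16 (filterByExpr, TMM, quasi-likelihood F test, threshold 0.05), after a test on simulated data; p-values measure the spread between libraries that the labels do not call separate cultures.

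Peaks named are members of at least 200 bp in the upper 50% by mean enrichment, outside chromosome 18, with the 6 highest and 6 lowest differences, and the 6 with the highest untreated enrichment; genes named are the 8 highest in CPM, those called, and list members. The remote, high-input and chromosome 4 sites, and the Vamp1, Flrt3, Vip and Mlf1 promoters, were chosen after their values were seen. The share of peaks at promoters, and the RNA of genes with such a peak at the promoter, could not be computed because the promoter tables have no coordinates and no mm9 annotation was used here; the promoter set defined by enrichment, chosen after seeing the data, stands in their place. Peak sequences were not analysed here. Promoter sequences matched 70.5% of the 112 genes, under 80%, so a comparison of motifs or CpG over the set is void. Members and lists were chosen with earlier results of these data known.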

Additional observations from a re-analysis of the deposited data

How the results depend on the processing

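The number of FAIRE peaks without H3K27ac was 31879 when an overlap of 50% of the shorter peak was required and 4957 among the FAIRE peaks in the upper 50% by score; with a 1000-bp margin, or the upper 50% of H3K27ac peaks, it stayed within 1.5 times the reported number. Their median difference, UV minus untreated, was 0.16 after centring on all FAIRE peaks and 0.0898 after quantile normalization, −0.42 with 1 read added in place of 16, −0.12 on each pool's own input scale, −0.24 in the upper 50% by enrichment and −0.16 with no H3K27ac within 1000 bp. Shares are given with that of all FAIRE peaks in brackets. The share losing signal was 12.4% (29.0%) at a threshold of 0.58, 0.490% (2.195%) after centring and 0.432% (1.62%) after quantile normalization. It was 1.53% (5.13%) on own scales and 21.6% (29.3%) with 1 read added. The share gaining was 0.669% (0.785%) at a threshold of 0.58, 0.337% (0.483%) after centring and 0.342% (0.658%) after quantile normalization. With 1 read added it was 3.07% (1.89%), so the order of gains turned from that of the main setting, 0.0263% (0.0527%). The cause was not tested; the reversals follow from setting the median of all FAIRE peaks, −0.35, to about 0. Alternatives for the promoter set were added after seeing the data: 46 windows with H3K27ac at or below 0, 39 with both limits at 1, and 1 with FAIRE of at least 1 and H3K27ac at or below 0.

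Genes of that set called higher and lower were 1 and 3 with DESeq2 (4.89% and 7.44% of all genes tested). They were 1 and 6 with library totals alone (6.06% and 25.05%), which shift the median of all genes to −0.24. Without the low-count filter they were 1 and 3 (4.19% and 7.99%). Leaving out 1 library gave 1 to 5 higher and 1 to 6 lower, with 5 and 6 without UV replicate 1 and 1 and 1 without UV replicate 3. Lower calls were 1 without untreated replicate 2 or 3. Over all genes tested these fits called 3.755% to 12.45% higher and 7.31% to 18.28% lower. Dclre1c and Ankrd49 kept their calls under all of these. Tbc1d8 lost its call under 5 settings, among them DESeq2 (adjusted p = 0.0576) and the fits without UV replicate 1 or 3 (up to 0.117), with adjusted p up to 0.200 over all settings. Gm14124 lost it without any library but UV replicate 1 (up to 0.0911), and Ppp1r3b without untreated replicate 2 or 3 or UV replicate 3 (up to 0.235). The replicate numbers did not pair the libraries (correlations of same-numbered deviations 0.155, −0.580 and 0.504). With the replicate block 2 were higher and 3 lower, as without it, against 8.55% and 13.85% of all genes tested. The alternatives for the share of peaks at promoters, and for RNA by peaks at promoters, were not run. Few reads per peak limit every single-site value.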
